A study of Mus musculus with 6 samples.

Results

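The transcripts described here belong to the program of the transcription factor ATF4 and to the serine and folate one-carbon pathway. They were chosen as a list of 33 genes, with earlier results of these data known. Of the 33 genes, 32 had a microarray probe set tied to 1 gene symbol, among 19938 genes measured in all. The proline synthesis gene Pycr1 had none and is not analysed here. No listed gene had more than 1 such probe set, so each gene below is 1 probe set.

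ATF4 is made when the translation initiation factor eIF2 is phosphorylated by kinases that sense amino acid shortage, unfolded protein in the endoplasmic reticulum, heme deficiency or double-stranded RNA. Because ATF4 is controlled mainly at translation, its mRNA is an incomplete measure of its activity, and its target genes are usually read beside it. The targets supply the cell with amino acids, charged tRNA and mitochondrial one-carbon units, and in skeletal muscle with mitochondrial stress they are known to rise together with the secreted hormone FGF21.

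The cells were C2C12 myotubes, multinucleated muscle cells formed from a mouse myoblast line, so every array comes from the same line and from no animal. Myoblasts were kept in 10% serum and turned into myotubes in 2%, per the labels' protocols. The siRNA was used at 10 nM, and cells received for 20 h 200 µM oleate, 200 µM palmitate, both bound to albumin (BSA) at 2.5 fatty acids per BSA, or BSA alone. The siRNA was a scrambled control or was directed against Plin2, which encodes the lipid droplet coat protein perilipin 2. The 6 arrays are therefore scrambled siRNA with BSA, oleate or palmitate and Plin2 siRNA with BSA, oleate or palmitate, with 1 array each and no replicate of any condition. All results on Plin2 siRNA rest on that 1 siRNA arm.

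Values are log2 expression as deposited, so a difference of 1 is a doubling. Over all probe sets the 6 medians were 4.94 to 5.02. Plin2 itself was at 9.29 to 10.10 with scrambled siRNA and 6.95 to 7.63 with its own siRNA, a change of -2.47 (SE 0.08, limma adjusted p = 2.3e-08). All 8 myotube markers were present (9.36 to 13.7), and 7 of 8 fell with Plin2 siRNA, where 8.8% of all genes fell. Their median change was -0.28, the muscle regulator Myog having the largest fall (-0.69) and Acta1 not being called (0.05). The log2 of their summed linear level was 15.4 to 15.5 with scrambled and 15.2 with Plin2 siRNA. Markers of adipocytes (4 of 4 measured, 3.41 to 5.34), endothelial cells (3 of 3, 3.25 to 4.60) and osteoblasts (2 of 3, 3.47 to 4.65) stayed low on every array, with 0 called. The log2 sums of these lists were 6.25 to 6.46, 5.46 to 5.86 and 4.88 to 5.30 with scrambled siRNA, against 6.31 to 6.65, 5.59 to 5.69 and 5.02 to 5.21 with Plin2 siRNA. For 3 of 3 fibroblast markers the sums were 10.1 to 10.3 in both groups, set mainly by the collagen gene Col1a1 (9.85 to 10.15). Pdgfra rose by 0.37 (SE 0.10, adjusted p = 0.028, limma), while Col1a1 (-0.04) and Thy1 (0.10) were not called. For 3 of 3 leukocyte markers the sums were 6.20 to 6.41 and 5.96 to 6.07. Cd68 fell (-0.53, SE 0.12, limma adjusted p = 0.0086), while Ptprc (0.04) and Cd3e (-0.07) were not called. The part of these shifts in the results below was not tested, and fewer cells of a type and less RNA per cell cannot be told apart in bulk RNA.

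Knockdown of Plin2 was accompanied by lower expression of most of the ATF4 and one-carbon genes. Of the 32, 18 fell, 1 rose and 13 did not pass the threshold of an adjusted p under 0.05 (limma, 3 pairs of arrays, adjusted over 21789 named probe sets). Over all 19938 genes, 8.8% fell and 8.31% rose by the same rule, 17.1% in either direction. The list was chosen with earlier results of these data known, so its counts beside these shares are a description. Its genes were also brighter, with medians of 7.96 to 8.25 per array against 4.94 to 5.02 over all probe sets. Without the dimmest probe sets fewer were tested but more were called, 4078 against 3721 of all 21789. A larger share therefore passed in that fit, and the shares over all genes are a low background for bright genes. No share over genes of like brightness was computed. The median change of the 32 was -0.34, against 0.00 over all genes, and 29 of the 32 fitted changes were below 0. The BSA pair had a median of -0.41, the oleate pair -0.19 and the palmitate pair -0.37. For 18 genes all 3 Plin2 siRNA arrays lay below all 3 scrambled arrays, and for 1 gene they lay above. Over all genes those shares were 15% and 15.3%.

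The deepest falls were those of the stress transcription factor Atf3 and the mitochondrial folate enzyme Mthfd2, and the gene that rose was the alanine transaminase Gpt2. The error of an siRNA change is its variation over the 3 treatments, with 2 residual degrees of freedom and the spread moderated across probe sets (9.21 prior degrees of freedom). With all 35556 probe sets in the fit, 11 fell and 1 rose (12 called). Without the moderation 0 of the 32 passed (lowest adjusted p = 0.17), and 13 had an unadjusted p under 0.05, as did 3833 of the 21789 probe sets. The labels do not say that the cultures were separate, and p-values therefore reflect no more than the spread between the arrays, which may be technical.

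**Figure D1:**
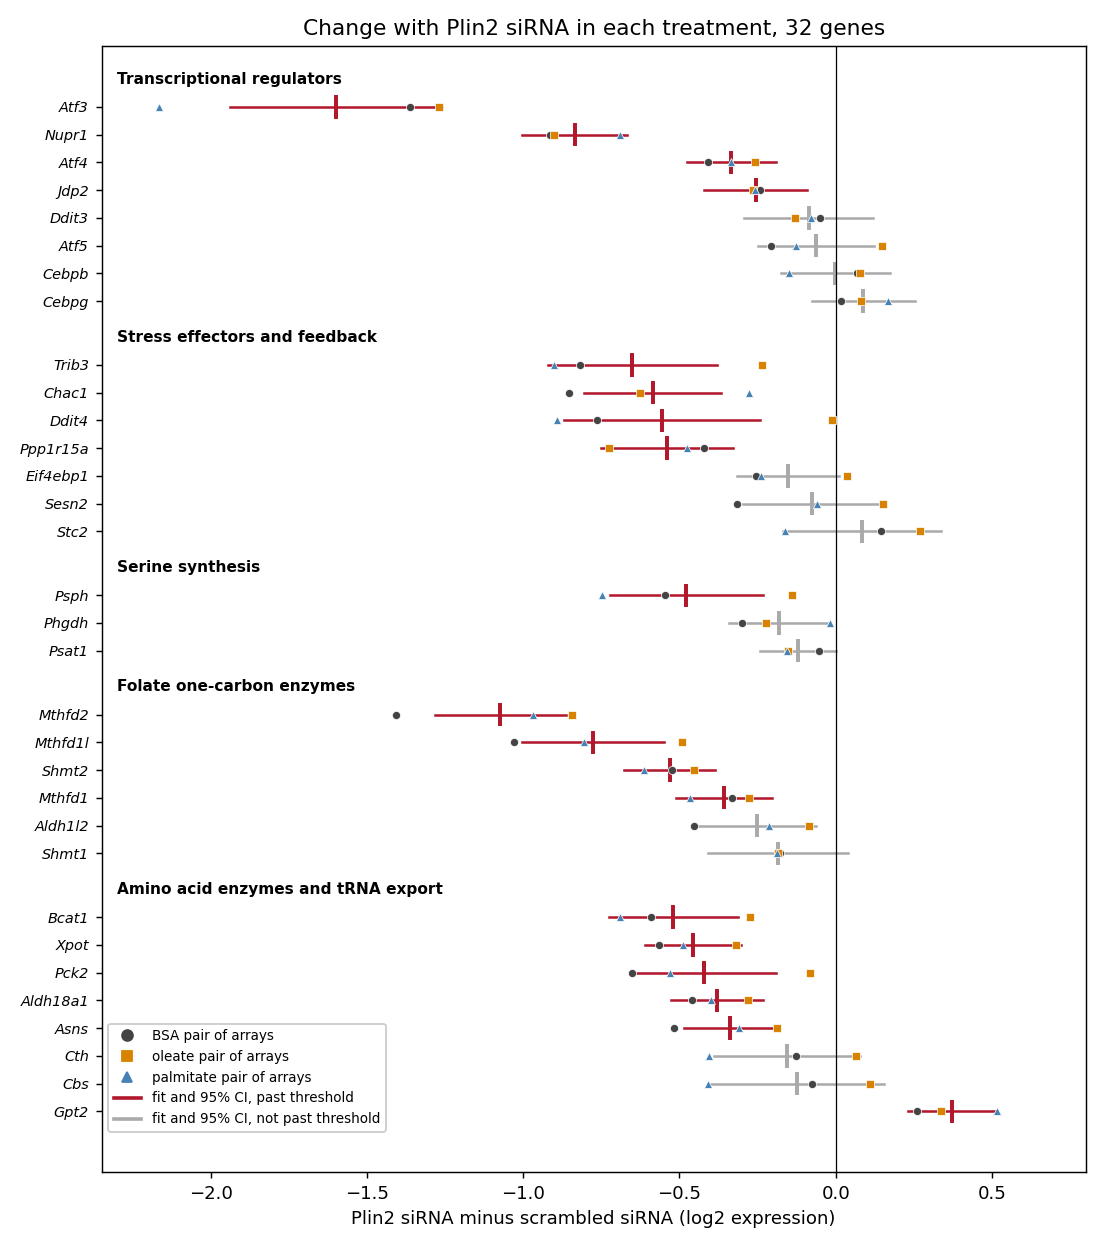
Change in log2 expression with Plin2 siRNA for each of the 32 genes, grouped by role. Points are the BSA, oleate and palmitate pairs of arrays, and the tick and line are the limma estimate and its 95% confidence interval, red where the adjusted p was under 0.05. Atf3 and Mthfd2 lie furthest to the left, at -1.60 and -1.07, and Gpt2 is the red gene to the right of 0, at 0.37.

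Promoter sequences show which of these genes carry, close to their start, the letters of the C/EBP-ATF composite element, the site class through which ATF4 dimers are known to bind. They were taken from the RefSeq promoter table (GRCm38.p6), which held 30 of the 33 genes, and were searched on both strands for TGATGNAA and TGACGNAA from 250 bases before to 50 after the start. TGATGNAA was found in 8 of the 30 (26.7%) and in 4.51% of all genes in the table (3.97% of promoters). TGACGNAA was found in 3 of the 30 (10%), in Atf3, Chac1 and Shmt1, and in 1.83% of all genes (1.59% of promoters). Of the 18 genes that fell with Plin2 siRNA, 7 held TGATGNAA, and of the 11 measured genes with a promoter entry that did not fall, 0 did. The eighth gene was Pycr1. TGACGNAA stood in 2 of those 18 and 1 of those 11. The list was taken from the ATF4 program, so its motif shares are not independent of that choice. The split uses the siRNA calls, which Jdp2 lost in 11 of 13 other settings, Pck2 in 7 and Asns in 5. A match is only a match of letters, and a link between matches and falls was not tested. Sites outside this window or with other letters were not searched, so a missing match does not show that a gene lacks a site.

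The 250 bases before the start are shown for 4 genes that fell, 2 transcription factors or cofactors (Atf3, Nupr1), a glutathione-degrading enzyme (Chac1) and asparagine synthetase (Asns), 5′ to 3′ on the gene's strand with the motif matches in capitals. A match in the reverse orientation reads TTNCATCA or TTNCGTCA. The regions are chr1:191183334-191183583 for Atf3 and chr7:126625471-126625720 for Nupr1, both on the minus strand, chr2:119350992-119351241 for Chac1 on the plus strand and chr6:7693210-7693459 for Asns on the minus strand.
Atf3: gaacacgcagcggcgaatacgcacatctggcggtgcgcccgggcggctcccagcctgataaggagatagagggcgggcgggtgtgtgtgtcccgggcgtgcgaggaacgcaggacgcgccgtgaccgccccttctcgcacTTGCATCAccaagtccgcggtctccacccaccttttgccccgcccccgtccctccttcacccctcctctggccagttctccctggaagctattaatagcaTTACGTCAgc
Nupr1: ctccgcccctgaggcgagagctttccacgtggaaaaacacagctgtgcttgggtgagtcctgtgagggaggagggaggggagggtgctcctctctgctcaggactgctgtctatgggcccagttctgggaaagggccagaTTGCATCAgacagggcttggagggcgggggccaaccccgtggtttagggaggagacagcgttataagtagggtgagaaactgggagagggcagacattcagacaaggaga
Chac1: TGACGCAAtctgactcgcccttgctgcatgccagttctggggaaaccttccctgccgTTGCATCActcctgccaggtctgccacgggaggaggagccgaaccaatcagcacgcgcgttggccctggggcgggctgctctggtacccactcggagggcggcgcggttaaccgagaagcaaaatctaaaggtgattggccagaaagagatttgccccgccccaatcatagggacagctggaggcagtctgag
Asns: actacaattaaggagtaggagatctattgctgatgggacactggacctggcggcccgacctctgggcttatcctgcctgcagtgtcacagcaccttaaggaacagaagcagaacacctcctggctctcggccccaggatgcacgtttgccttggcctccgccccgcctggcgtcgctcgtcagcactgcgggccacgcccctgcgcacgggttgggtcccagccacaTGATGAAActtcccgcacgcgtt
Atf3 and Nupr1 hold the same 8 letters, TTGCATCA, at the same place, bases -110 to -103 with the start base counted as 0. Atf3 has in addition TTACGTCA at -10 to -3. Chac1 has TTGCATCA at -193 to -186 and TGACGCAA at -250 to -243, and Asns has TGATGAAA at -23 to -16.

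The remaining 3 genes that fell and held TGATGNAA are the pseudokinase gene Trib3, the AP-1 family repressor Jdp2 and the mitochondrial enzyme Pck2. Their matches are shown as 30-base stretches, at chr2:152344028-152344057 (minus strand), chr12:85599372-85599401 (plus) and chr14:55540152-55540181 (plus).
Trib3: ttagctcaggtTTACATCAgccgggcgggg
Jdp2: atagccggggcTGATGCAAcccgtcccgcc
Pck2: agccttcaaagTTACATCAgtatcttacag
The Trib3 match lies after the start, at bases 14 to 21, and those of Jdp2 and Pck2 lie before it, at -33 to -26 and -103 to -96. Jdp2 has 3 start sites in the table, and the match belongs to 1 of them.

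Among the 8 transcriptional regulators, 4 fell with Plin2 siRNA (Atf3, Nupr1, Atf4 and Jdp2) and 0 rose. This count and those of the other role groups stand against 8.8% of all genes that fell and 8.31% that rose. Atf4 mRNA was at 9.83, 9.69 and 9.78 with scrambled siRNA in BSA, oleate and palmitate, and at 9.42, 9.43 and 9.44 with Plin2 siRNA. The groups did not overlap, and the change was -0.33 (SE 0.06, limma adjusted p = 0.0042). Without the scrambled BSA array it was -0.30 (adjusted p = 0.066), and without the Plin2 siRNA BSA array -0.30 (adjusted p = 0.064).

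Atf3, a stress-induced factor of the ATF family, was at 6.68, 6.71 and 7.61 with scrambled and at 5.32, 5.44 and 5.44 with Plin2 siRNA. Scrambled palmitate stood above every other array, and the highest Plin2 siRNA array lay below the lowest scrambled one. The change of -1.60 (SE 0.15, limma adjusted p = 3.7e-05) is 3.03-fold lower. The BSA pair differed by -1.36, the oleate pair by -1.27 and the palmitate pair by -2.17. Nupr1, a small stress-induced chromatin protein, was at 8.87, 8.88 and 8.78 against 7.96, 7.98 and 8.09. Its arrays were close within each siRNA and did not overlap between them (-0.84, SE 0.08, limma adjusted p = 2.6e-05, 1.79-fold lower).

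Ddit3 encodes CHOP, the partner of ATF4 in prolonged stress. It was at 6.46, 6.60 and 6.51 with scrambled and at 6.41, 6.47 and 6.43 with Plin2 siRNA. The groups overlapped and the change was not called (-0.09, 95% confidence interval -0.29 to 0.12, limma adjusted p = 0.66). Jdp2 fell by 0.26 on the log2 scale (SE 0.08, limma adjusted p = 0.038), a call that was lost on leaving out any 1 array (adjusted p = 0.074 to 0.19). The remaining 3 regulators were not called: Atf5 (-0.06), and the C/EBP family members Cebpb (0.00) and Cebpg (0.09), which can pair with ATF4.

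Of 7 stress effectors and feedback genes, 4 fell and 0 rose. Trib3, which restrains ATF4 and AKT signalling, was at 7.61, 6.99 and 7.52 with scrambled and at 6.79, 6.76 and 6.62 with Plin2 siRNA. The groups did not overlap, but the oleate pair differed by only -0.23, against -0.82 for BSA and -0.90 for palmitate. The change was -0.65 (SE 0.12, limma adjusted p = 0.0036), and it was not called with all probe sets in the fit (adjusted p = 0.069).

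Chac1, which degrades glutathione, was at 9.05, 8.77 and 8.51 against 8.19, 8.14 and 8.24. Its scrambled arrays were spread more widely than its Plin2 siRNA arrays, with palmitate the lowest, and the groups did not overlap (-0.59, SE 0.10, limma adjusted p = 0.0019). With all probe sets in the fit it was not called (adjusted p = 0.052). Ppp1r15a encodes GADD34, which directs a phosphatase to eIF2 and so ends the signal. It was at 7.16, 7.19 and 7.11 against 6.74, 6.46 and 6.64, with no overlap (-0.54, SE 0.10, limma adjusted p = 0.0025).

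Ddit4 encodes REDD1, an inhibitor of mTORC1 signalling. It was at 7.82, 6.81 and 7.69 with scrambled and at 7.06, 6.80 and 6.80 with Plin2 siRNA. The scrambled oleate array lay among the Plin2 siRNA arrays, so the groups overlapped, and the oleate pair differed by only -0.01. The change over the 3 pairs was -0.56 (SE 0.14, limma adjusted p = 0.020). It was -0.45 without the scrambled BSA array (adjusted p = 0.096) or the Plin2 siRNA BSA array (0.091), and -0.39 without the scrambled palmitate array (0.10) or the Plin2 siRNA palmitate array (0.10), by limma. The mTORC1 regulator Sesn2 (-0.07), the translation repressor Eif4ebp1 (-0.15) and the secreted glycoprotein Stc2 (0.09) were not called.

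**Figure D2:**
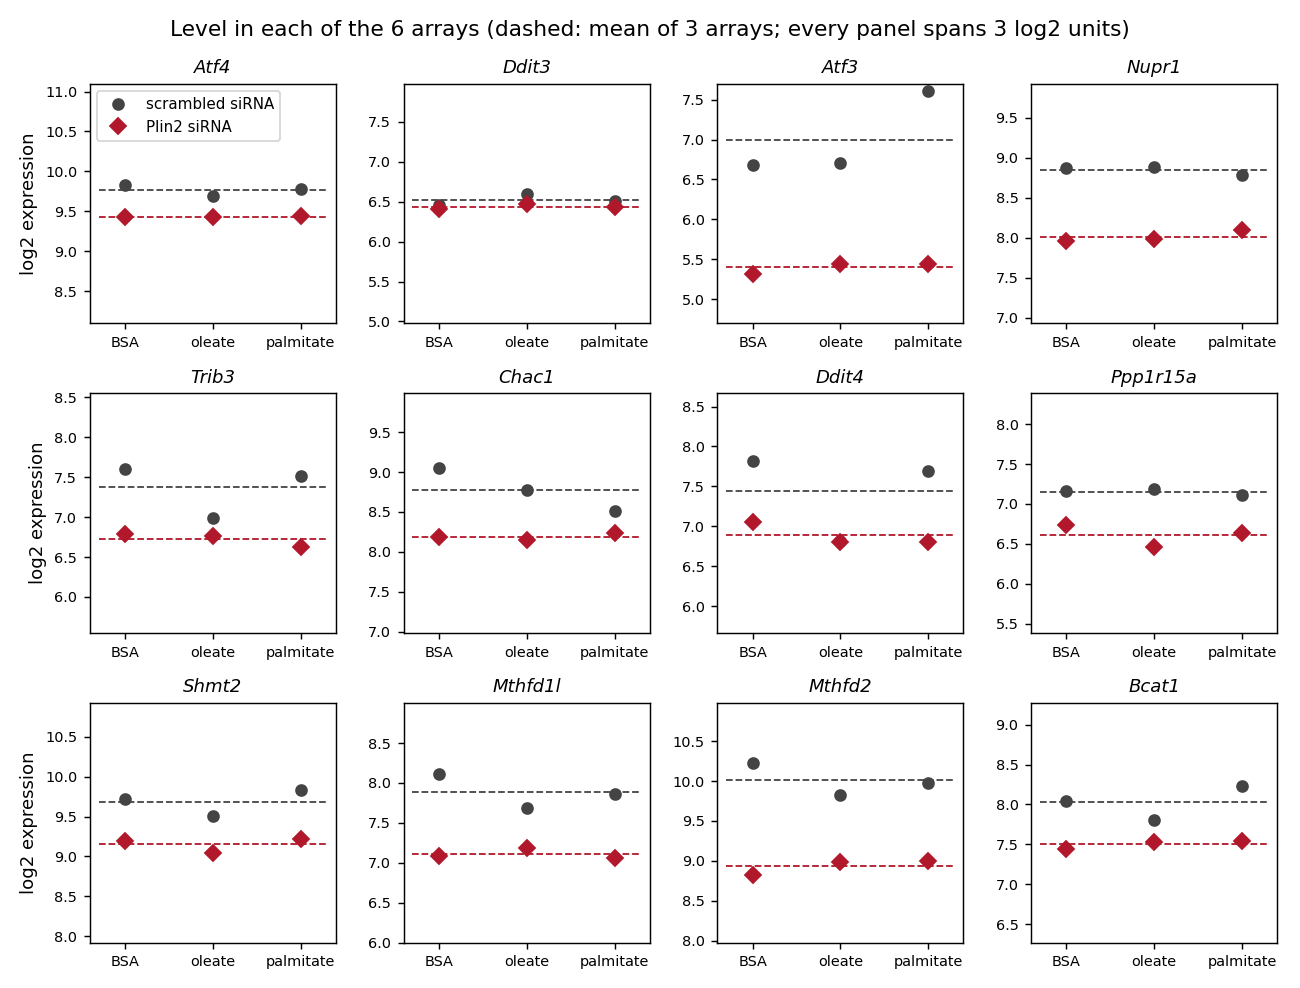
Log2 expression of 12 genes in each of the 6 arrays, by treatment on the horizontal axis, with circles for scrambled and diamonds for Plin2 siRNA. Dashed lines are means of 3 arrays and every panel spans 3 log2 units. Diamonds lie below all circles in 10 panels, while Ddit3 and Ddit4 overlap.

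In the 3-step synthesis of serine from glycolytic 3-phosphoglycerate, 1 of 3 enzymes fell. Psph, the phosphatase of the last step, was at 7.62, 7.22 and 7.61 with scrambled and 7.07, 7.08 and 6.86 with Plin2 siRNA, without overlap. The change was -0.48 (SE 0.11, limma adjusted p = 0.012). It was -0.44 without the BSA array of scrambled (adjusted p = 0.058) or Plin2 siRNA (0.055), and -0.34 without the palmitate array of scrambled (0.063) or Plin2 siRNA (0.059). The first enzyme, Phgdh, changed by -0.18 (95% confidence interval -0.34 to -0.02, limma adjusted p = 0.13), and the transaminase Psat1 by -0.12 (-0.24 to 0.00, adjusted p = 0.19). Both lay below 0 in 3 of 3 pairs and neither was called.

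Of 6 folate one-carbon enzymes, 4 fell, 0 rose and all 6 fitted changes were below 0. Mthfd2, the mitochondrial dehydrogenase and cyclohydrolase that oxidises methylene-tetrahydrofolate, was at 10.23, 9.83 and 9.97 with scrambled and at 8.82, 8.98 and 9.00 with Plin2 siRNA. The lowest scrambled array lay above the highest Plin2 siRNA array by more than the spread within either group. The change was -1.07 (SE 0.10, limma adjusted p = 2.1e-05), 2.10-fold lower, and was deepest in BSA at -1.41.

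Mthfd1l, the mitochondrial enzyme that releases formate, was at 8.11, 7.68 and 7.86 against 7.09, 7.19 and 7.06. The groups did not overlap (-0.78, SE 0.10, limma adjusted p = 0.00035). Shmt2, the mitochondrial enzyme that takes the one-carbon unit from serine, was at 9.71, 9.50 and 9.84 against 9.19, 9.05 and 9.22, again without overlap (-0.53, SE 0.07, limma adjusted p = 0.00023). The cytosolic trifunctional enzyme Mthfd1 fell by 0.36 (SE 0.07, adjusted p = 0.0042). The cytosolic counterpart of Shmt2, Shmt1, changed by -0.18 (95% confidence interval -0.41 to 0.04, adjusted p = 0.29), and mitochondrial Aldh1l2 by -0.25 (-0.44 to -0.06, adjusted p = 0.072), in the same limma fit. The difference between cytosolic and mitochondrial members was not tested.

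Among 8 measured genes of amino acid and proline metabolism and tRNA export, 5 fell and 1 rose. Bcat1, the cytosolic branched-chain transaminase, was at 8.04, 7.81 and 8.23 with scrambled and at 7.45, 7.54 and 7.54 with Plin2 siRNA, without overlap (-0.52, SE 0.09, limma adjusted p = 0.0027). The tRNA exportin Xpot (-0.46, adjusted p = 0.00086) and Aldh18a1, which starts proline synthesis (-0.38, adjusted p = 0.0024), also fell in limma. Pck2, the mitochondrial phosphoenolpyruvate carboxykinase, fell (-0.42, limma adjusted p = 0.016), and so did Asns (-0.34, limma adjusted p = 0.0047), which makes asparagine. Without the scrambled BSA array Pck2 was at -0.31 (adjusted p = 0.15) and Asns at -0.25 (0.10), and the values were -0.31 (0.14) and -0.25 (0.10) when the BSA array of Plin2 siRNA was left out. Leaving out the scrambled or the Plin2 siRNA palmitate array gave -0.37 for Pck2 (adjusted p = 0.059 and 0.057).

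Gpt2, the mitochondrial alanine transaminase, went the other way. It was at 11.05, 10.92 and 10.60 with scrambled and at 11.31, 11.25 and 11.12 with Plin2 siRNA. All 3 Plin2 siRNA arrays stood above all 3 scrambled arrays (0.37, SE 0.06, limma adjusted p = 0.0019), and scrambled palmitate was the lowest. The transsulfuration enzymes Cth (-0.16, adjusted p = 0.42) and Cbs (-0.13, adjusted p = 0.63) were not called by limma.

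Neighbouring lists, also chosen with earlier results of these data known, describe how far the pattern extends. Of 21 other known ATF4 targets, 19 were measured, 10 fell and 0 rose (median -0.30). The hormone gene Fgf21 was at 11.27, 10.85 and 11.00 with scrambled and at 8.94, 9.11 and 8.92 with Plin2 siRNA, the deepest fall among these targets (-2.05, SE 0.09, limma adjusted p = 2.1e-07). Next among the same 19 were the cationic amino acid transporter Slc7a1 (-0.79), the cystine transporter Slc7a11 (-0.71) and the angiogenic factor Vegfa (-0.60).

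Of 11 eIF2 kinases, subunits and partners, 10 were measured, 0 fell and 1 rose, the eIF2 subunit gene Eif2s2 (0.40, SE 0.07, limma adjusted p = 0.0028). The kinase genes Eif2ak3 (PERK, -0.16) and Eif2ak4 (GCN2, 0.31) were not called (limma adjusted p = 0.28 and 0.065), and mRNA does not report kinase activity. The list's median was 0.06.

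Of 14 genes of the other arms of the unfolded protein response, 13 were measured, 5 fell and 1 rose (median -0.16). Those named by size are the co-chaperone Dnajc3 (-0.66), the ER degradation factor Herpud1 (-0.44), the sensor Atf6 (-0.39) and its relative Atf6b, which rose (0.44). The chaperone Hspa5, also called BiP, was not called (-0.16, SE 0.05, limma adjusted p = 0.054), nor was Xbp1 (-0.09, adjusted p = 0.39).

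Of 23 folate and methionine cycle neighbours, 18 were measured, 3 fell and 1 rose (median -0.08). Methionine synthase, Mtr, rose (0.52, SE 0.08, limma adjusted p = 0.00082), while its reductase Mtrr fell (-0.31, SE 0.08, adjusted p = 0.025). The folate polyglutamating enzyme Fpgs (-0.40) and the purine enzyme Atic (-0.26) fell as well. Counts for all 4 lists stand against the same 17.1% of genes called, 8.8% that fell and 8.31% that rose.

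**Figure D3:**
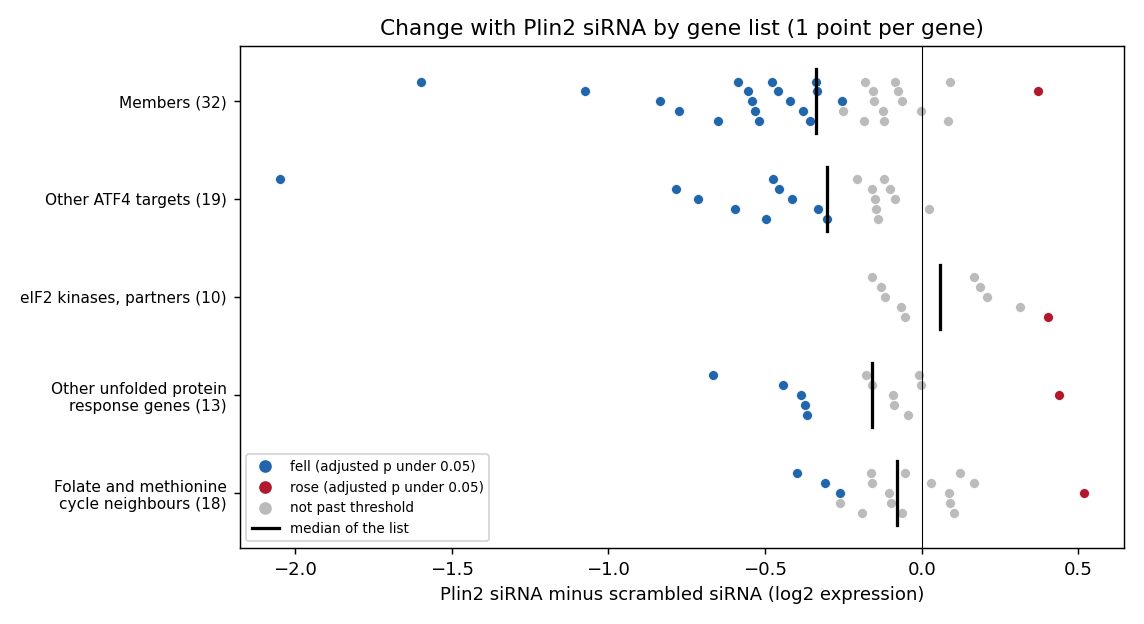
Change in log2 expression with Plin2 siRNA, 1 point per gene, for the 32 genes and for 4 neighbouring lists, with the number measured in brackets. Blue points fell and red points rose at an adjusted p under 0.05, and the black line is the list's median. The medians are -0.34, -0.30, 0.06, -0.16 and -0.08 from top to bottom.

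The sizes of the falls with Plin2 siRNA were compared between the single pairs of arrays, as counts and not as a test. In 14 of the 18 genes that fell, the oleate pair of arrays had the smallest change (77.8%), against 45% of all 1755 genes that fell. BSA and palmitate each had the smallest change in 2. Chac1, Nupr1, Jdp2 and Ppp1r15a are the exceptions. In the scrambled arrays, oleate minus BSA was below 0 for 26 of 32 genes (57.2% of all genes). With Plin2 siRNA it was below 0 for 13 of 32 (51.2% of all genes). The median oleate minus BSA change was -0.19 with scrambled and 0.02 with Plin2 siRNA. These counts share arrays, have 1 array per condition and are a description.

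In limma, 0 of the 32 were called for oleate against BSA, where 0.0802% of all genes were called. An unadjusted p under 0.05 was held by 4 of the 32 and by 1241 of all 19938 genes. The largest changes were those of Cth and Ddit4. Cth, which makes cysteine from cystathionine, was at 7.13 in BSA, 6.34 in oleate and 7.01 in palmitate with scrambled siRNA, and at 7.00, 6.41 and 6.61 with Plin2 siRNA. The oleate arrays were the lowest in both siRNA groups, below every BSA and palmitate array. Its oleate change was -0.69 (SE 0.13, limma adjusted p = 0.14), and the scrambled and Plin2 siRNA pairs gave -0.79 and -0.59. For Ddit4 it was -0.63 (SE 0.18, adjusted p = 0.46), where the scrambled pair gave -1.01 and the Plin2 siRNA pair -0.25, and for Trib3 -0.32 (SE 0.15, adjusted p = 0.80), with -0.62 and -0.03.

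The oleate results depend on single arrays, since each change rests on 2 pairs. With the Plin2 siRNA oleate array left out, the changes were -0.86 for Cth, -1.04 for Ddit4 and -0.64 for Trib3. These values rest on the scrambled oleate array alone, so no p-value is given for them. With the scrambled oleate array left out instead, 0 of 32 were called. With only the 4 oleate and BSA arrays, or without the scrambled or the Plin2 siRNA palmitate array, Cth alone passed (-0.69 each time, limma adjusted p = 0.018, 0.019 and 0.018). A palmitate array without its partner adds nothing to this change. These settings therefore rest on the same 4 arrays and are not separate results.

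For palmitate against BSA, 0 of 32 were called in limma, where 0.01% of all genes were called. An unadjusted p under 0.05 was held by 2 of the 32 and by 1037 of all 19938 genes. The median change was -0.04. Atf3 had the largest rise (0.53, SE 0.19, adjusted p = 0.89), where the scrambled pair gave 0.93 and the Plin2 siRNA pair 0.13. Gpt2 had the largest fall (-0.32, SE 0.08, adjusted p = 0.72), with -0.45 and -0.19. With only the 4 palmitate and BSA arrays, Atf3 (adjusted p = 0.045) and Gpt2 (adjusted p = 0.0098) passed in limma. Both also passed without the Plin2 siRNA oleate array (0.041 and 0.012). Gpt2 alone passed without the scrambled oleate array (adjusted p = 0.0098). An oleate array without its partner adds nothing to the palmitate change, so these settings rest on the same 4 arrays and are not separate results. Without the Plin2 siRNA palmitate array the Atf3 change was 0.95, against 0.13 in the Plin2 siRNA pair. That change of 0.95 rests on the scrambled palmitate array alone, so no p-value is given for it.

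**Figure D4:**
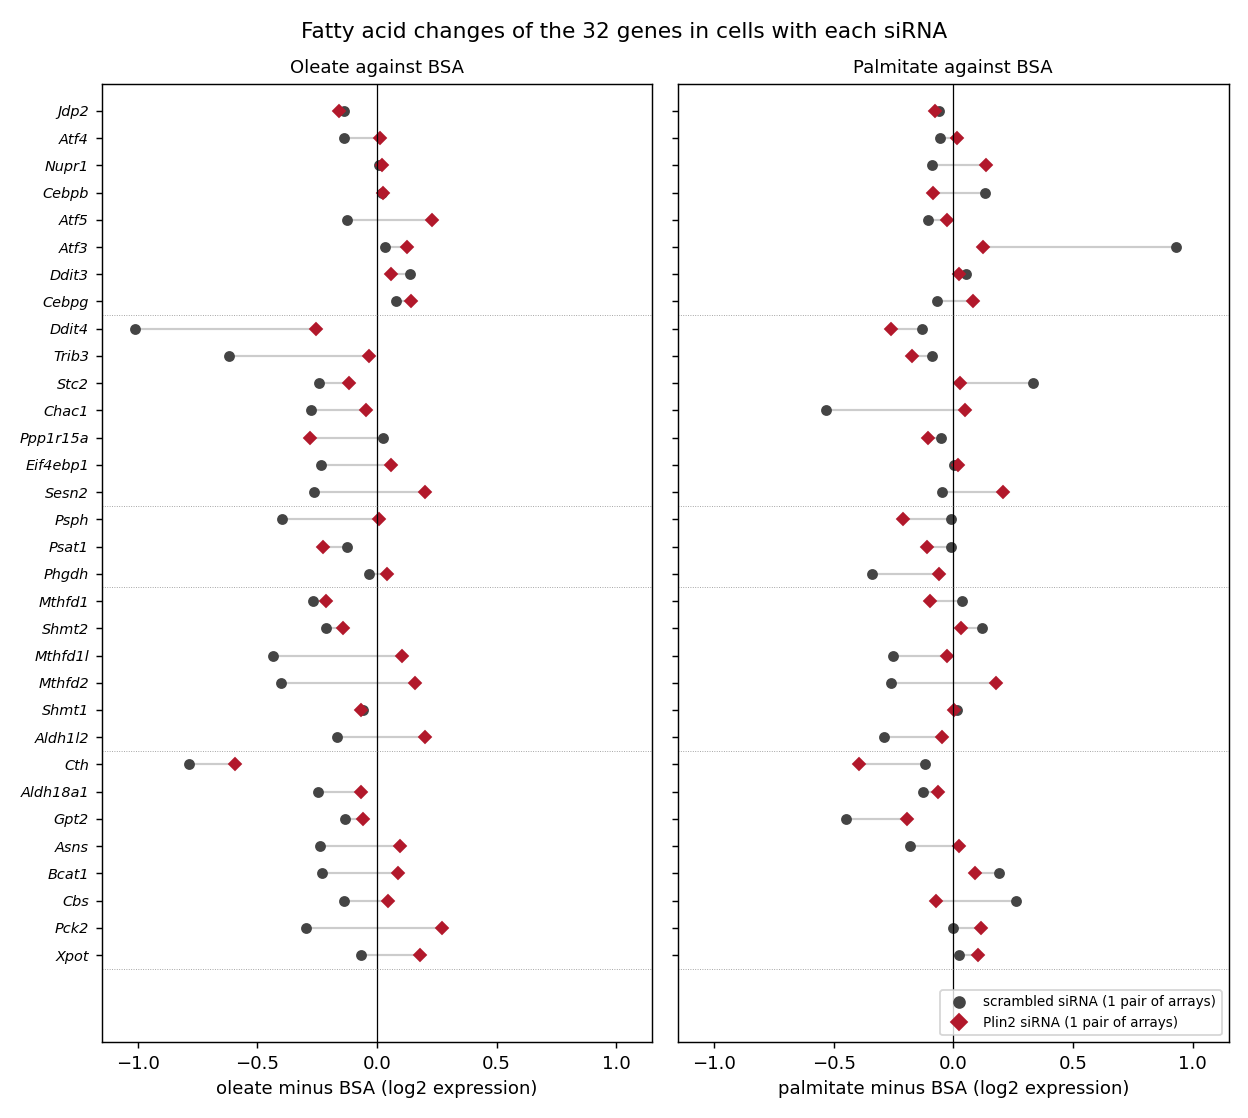
Oleate minus BSA (left) and palmitate minus BSA (right) in log2 expression for the 32 genes, with circles for scrambled and diamonds for Plin2 siRNA, each 1 pair of arrays. Dotted lines separate the role groups. In the left panel 26 circles and 13 diamonds lie below 0, and in the right panel 21 circles and 16 diamonds do.

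The monounsaturated oleate and the saturated palmitate were compared directly at 200 µM and 20 h. In limma 0 of 32 were called (0.281% of all genes were). An unadjusted p under 0.05 was held by 8 of the 32 and by 1818 of all 19938 genes. The largest palmitate minus oleate differences were 0.45 for Atf3 (95% confidence interval 0.03 to 0.87, adjusted p = 0.51), 0.44 for Ddit4 (0.05 to 0.82, adjusted p = 0.48) and 0.43 for Cth (0.15 to 0.72, adjusted p = 0.34). Of these, Atf3 differed by 0.90 with scrambled and 0.00 with Plin2 siRNA, and Ddit4 by 0.88 and 0.00. Without the Plin2 siRNA oleate array the differences were 0.70 for Atf3, 0.85 for Ddit4 and 0.60 for Cth. Without the Plin2 siRNA palmitate array they were 0.88 for Atf3 and 0.62 for Cth. In each case 1 fatty acid is then the scrambled array alone, so no p-value is given. Leaving out scrambled oleate or scrambled palmitate instead gave 0 calls.

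Whether the response to a fatty acid, taken as the mean of oleate and palmitate against BSA, differed between the siRNAs was tested with an interaction term. In limma 0 of 32 were called, as were 0% of all genes, and 1 of 32 had an unadjusted p under 0.05 (511 of all genes). That gene was Mthfd2, with a difference of 0.50 (95% confidence interval 0.14 to 0.86, unadjusted p = 0.0098, adjusted p = 1.0). The test has 1 residual degree of freedom, and the median difference over the 32 was 0.11. A difference in the response to oleate alone has 1 array per condition and was not tested.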

How the data were processed

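RNA from 6 conditions was hybridised to Affymetrix whole-transcript arrays, 1 array per condition. The authors deposited 1 log2 expression value per probe set, made by RMA per the submitters' processing notes. RMA corrects background, normalizes between arrays and summarises probes, so it can shrink small differences at low signal. For RMA, the version and the genome build were not given in the sources used here. Base 2 for the logarithm was inferred from RMA and the range of the values. The number of arrays limits the precision.

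Values were used as deposited. Of 35556 probe sets, 21789 had 1 gene symbol in the GEO platform annotation, 1621 had several, and 12146 were not in it. A gene is its probe set with the highest mean.

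All 6 arrays entered 1 linear model of treatment and siRNA (limma 3.58.1, R 4.3.3; lmFit, then eBayes with intensity trend), with Benjamini-Hochberg adjustment over the 21789 probe sets and a threshold of 0.05. The treatment acts as the block of the siRNA comparison. An interaction model added siRNA by any fatty acid (17.5 prior degrees of freedom). The code was tested on simulated data.

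The members and lists were chosen with earlier results of these data known. Values in every array are given for Atf4, Ddit3 and Atf3, for genes called with an absolute siRNA change of at least 0.5 and for the 3 largest palmitate minus oleate differences. Psph, Gpt2 and Fgf21 were added after their values were seen. Of each neighbouring list up to 4 called genes with the largest change are named, and Hspa5, Xbp1, Eif2ak3 and Eif2ak4 were added after their values were seen. Promoters came from RefSeq by symbol, and Eif4ebp1, Aldh1l2 and Cth had no entry. Alternatives covered the trend, the probe sets fitted, the normalization, the block, the moderation and each array.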

Additional observations from a re-analysis of the deposited data

How the results depend on the processing

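Against 19 genes called for Plin2 siRNA, fitting all probe sets called 12. A paired test without moderation called 0 (lowest adjusted p = 0.17). In that test 13 genes had an unadjusted p under 0.05, as did 3833 of the 21789 probe sets. Without the treatment as a block 17 were called, without the intensity trend 15, without the dimmest probe sets 20, with quantile normalization 19 and with median centring 18. Leaving out each array in turn gave 13 to 20, lowest without either BSA array, and an array whose partner is missing carries no information on the siRNA change. All 19 kept their direction in all 13 settings. Jdp2 lost its call in 11 of them, Ddit4 in 8, Pck2 in 7, Psph in 6, Asns in 5, Atf4 in 3, and Trib3 and Chac1 in 2. The other 11 lost it only in the unmoderated test. For Atf3 the limma adjusted p was 5.9e-28 without the Plin2 siRNA oleate array, against 3.7e-05 with all arrays. Such a small value from fewer arrays rests mainly on the moderated spread. Keeping a call with an array left out therefore says little about a gene's own spread. The labels carry no replicate numbers, so no other pairing was tried.

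Against 0 called genes, 1 was called for oleate and 2 for palmitate when only the 4 arrays compared were fitted. Leaving out each array in turn gave 0 to 3 for oleate, 0 to 2 for palmitate and 0 to 3 for palmitate against oleate. The interaction gave 0 in every setting run (1 member at an unadjusted p under 0.05 as reported). It could not be fitted with an array left out and was not run without moderation. The planned use of a gene's next probe set gave no value, since no gene had more than 1. Where the array left out belongs to a treatment compared, 1 array of that treatment is left, and a call then rests on it alone. Where the array left out belongs to the treatment not compared, the change rests on the same 4 arrays as the fit of only those arrays. With 1 array per condition, no difference between treatments within an siRNA has an error of its own.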
